A study of Rattus norvegicus with 176 samples.

Results

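The cell cycle genes described here are 37 genes of DNA replication and mitosis, from the G1 cyclin Ccnd1 to the spindle protein Stmn1, followed through the livers of rats given clofibric acid. By the array's annotation 30 of the 37 had a probe set, out of 10411 genes with one, and where a gene had several the probe set with the highest mean log2 value stood for it. No probe set was matched to Ccna2, Rrm2, Kif11, Prc1, Nusap1, Tpx2 or Hmgb2.

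Total RNA of F344 rat liver sections had been hybridized to 176 arrays, 1 per section, in a long-term study of clofibric acid (CA), a fibrate drug that activates the nuclear receptor PPARalpha. Of the sections, 148 carried no tag, 23 were tagged TU and 5 PERI, and every tagged section came from a rat with an untagged section too. Control rats (neither agent in the group name), CA rats, DEN rats (DEN is the usual abbreviation of the liver carcinogen diethylnitrosamine) and DEN-CA rats (both agents) formed groups of 5 for each of the time labels 5j, 1m, 3m, 9m and 12m, with 18m added for the control and CA arms. A control group and a DEN group of 5 rats each were labelled -8. The tag rev was carried at 18m by 4 CA rats and 3 controls, and at 12m by 4 controls, 5 DEN-CA rats and 6 DEN rats, while 6 CA rats were labelled 18 with no unit. The labels leave j, rev, TU, PERI and a B suffix on 46 untagged arrays unexplained, and their titles give 5000 ppm CA for all rats, controls included, so groups were read from the group names. The age and sex of the animals are not given in the sources used here.

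A cell that divides first makes D-type cyclins, which with CDK4 and CDK6 inactivate the retinoblastoma proteins and release E2F factors. E2F then drives genes of DNA synthesis, such as the MCM helicase subunits and Pcna, and later the mitotic genes rise, from Cdk1 and its B-type cyclins to the anaphase machinery, whose promoters commonly carry CCAAT boxes and CHR elements. In adult liver nearly all hepatocytes rest, and PPARalpha activators are known to cause a short wave of hepatocyte division in rats and, over a long time, liver tumours.

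The levels of several members were near the bottom of the array's range. Signals are the deposited MAS5 intensities, each array scaled to the same median, and probe sets of different genes cannot be set against each other. Ccnd1, Mcm7, Pcna, Cks2, Tk1 and Lmnb1 were above the 40th percentile of their array on all 176 arrays. Cdk1 was above it on 24, Top2a and Kif20a on 10, Mki67 and Cdkn3 on 6, Mcm6 on 5, Tyms on 4 and Bub1b on 0. Tyms and Bub1b did not enter the test of untagged sections, which took 28 members among 8733 genes. A section is a mixture of cells, so fewer cells of a type and less RNA per cell cannot be told apart.

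Promoters are shown for 4 members with changes described further on, since this family is known for a few shared promoter motifs. RefSeq promoters of the GRCr8 build were matched for 25 of the 30 members, and the 250 bases before the start were searched on both strands. The first motif was the CCAAT box. The CHR element was searched as TTTGAA and also in the form TTTAAA. E2F-type sites were searched as TTCCCGC, in a further form as TTGGCGC, in the form TTCGCGC and finally in the form TTGCCGC. Mcm7, a subunit of the replicative helicase, was past the threshold in 4 comparisons, and the others were chosen after their values were seen. They are Fen1, the flap nuclease that matures Okazaki fragments, Cdk1, the kinase that starts mitosis, and Top2a, the topoisomerase that untangles chromosomes. Capitals mark a motif, and all are written along the gene's strand, which is minus for Mcm7 (chr12:22163179-22163428), Fen1 (chr1:216274397-216274646) and Top2a (chr10:84473094-84473343) and plus for Cdk1 (chr20:19265043-19265292).
Mcm7: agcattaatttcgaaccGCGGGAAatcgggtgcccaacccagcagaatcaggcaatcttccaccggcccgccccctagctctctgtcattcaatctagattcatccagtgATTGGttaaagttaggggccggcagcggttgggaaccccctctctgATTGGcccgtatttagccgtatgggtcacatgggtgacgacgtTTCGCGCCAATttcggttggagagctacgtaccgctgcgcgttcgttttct
Fen1: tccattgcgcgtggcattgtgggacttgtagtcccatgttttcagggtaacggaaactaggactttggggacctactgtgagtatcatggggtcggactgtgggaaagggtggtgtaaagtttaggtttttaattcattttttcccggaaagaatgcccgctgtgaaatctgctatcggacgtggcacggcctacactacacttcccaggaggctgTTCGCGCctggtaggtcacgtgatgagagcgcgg
Cdk1: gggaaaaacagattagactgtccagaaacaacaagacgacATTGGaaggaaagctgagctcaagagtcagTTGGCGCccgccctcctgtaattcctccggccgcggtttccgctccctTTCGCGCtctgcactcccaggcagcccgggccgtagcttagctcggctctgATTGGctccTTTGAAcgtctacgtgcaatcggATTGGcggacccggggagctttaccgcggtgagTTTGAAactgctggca
Top2a: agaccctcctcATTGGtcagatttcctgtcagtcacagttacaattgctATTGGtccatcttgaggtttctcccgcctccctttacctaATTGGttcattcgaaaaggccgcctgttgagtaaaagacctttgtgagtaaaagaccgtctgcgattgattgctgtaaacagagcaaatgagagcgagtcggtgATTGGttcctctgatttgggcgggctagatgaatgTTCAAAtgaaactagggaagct
In Mcm7 a run of capitals holds overlapping E2F-type and CCAAT letters. The Top2a window has 4 CCAAT and 1 CHR match and 0 E2F-type matches, the Fen1 window 1 E2F-type match and 0 of the other kinds, and the Cdk1 window matches of all 3 kinds. Over the members, CCAAT stood in 20 of 25 windows (80%, against 34.3% of all 27457 promoters), CHR letters in 14 (56%, against 25.3%) and E2F-type letters in 11 (44%, against 7.97%). Among promoters of all genes with a probe set the shares were 35.4%, 17.3% and 13%. All 5 promoters of Cdk1, its cyclins and their partners held both CCAAT and CHR letters, and 4 of 5 MCM promoters held E2F-type letters. These matches describe letters, not bound sites. No promoter was matched to Ccnd1, Mcm4 or Ube2c.

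As a whole the members stood within a narrow range of levels in most groups. The mean of the 30 genes, as log2(signal + 25), had group means between 6.28 in CA rats of 9m and 6.71 in DEN rats of 5j in 28 of the 30 untagged groups. The 2 groups above that were DEN-CA rats of 5j, at 6.95 ± 0.42 (SD, n = 5), and control rev rats of 18m, at 7.12 ± 0.51 (SD, n = 3). At 5j the control rats lay between 6.46 and 6.56, the CA rats between 6.45 and 6.81, the DEN rats between 6.54 and 6.79 and the DEN-CA rats between 6.49 and 7.55. The last group thus held both a rat within the control range and the highest rat of its time.

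**Figure D1:**
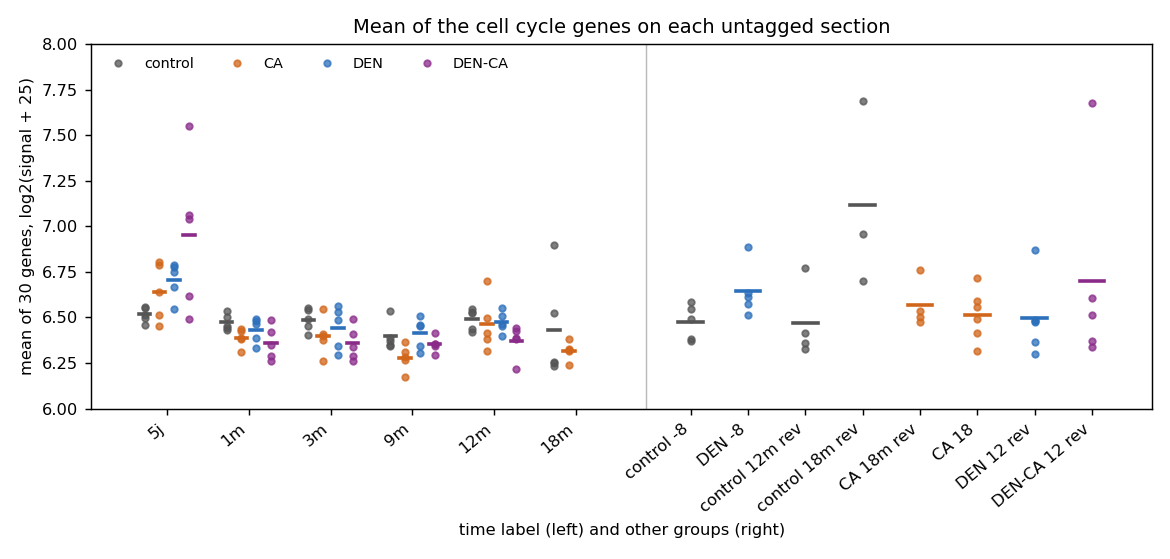
Mean log2(signal + 25) of the 30 cell cycle genes on each untagged section, by time label and arm at the left and in the other groups at the right (points: rats, bars: group means). DEN-CA rats spread from 6.49 to 7.55 at 5j, and single high rats stand out among control 18m, control 18m rev and DEN-CA 12 rev.

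Untagged sections of 2 rats stood apart in these genes and in markers of cytotoxic lymphocytes, and that of another rat in the markers. Control rev rat 4043, DEN-CA rev rat 4111 and control rat 4040 of 18m had member means of 7.69, 7.68 and 6.90. In rat 4043 17 of the 30 members were above every one of the 145 other untagged sections, in rat 4111 14 and in rat 4040 1. The same count over all genes was not made, so these counts and those of the markers cannot be read as particular to these genes. Of 21 cytotoxic lymphocyte markers measured, 16, 15 and 13 were above the other sections, and their summed signal was 29275, 16412 and 12567 against 1082 to 6466 in the rest. The cytotoxic granule proteins Prf1 and Nkg7 stood at 3754 and 3529 in rat 4043, while Cd3d, a part of the T cell receptor complex, stood at 23.5, near the 21.1 that was the median of the other sections. Of 10 macrophage markers 6, 2 and 4 were above the rest, with sums of 18233, 12806 and 14195 against 3504 to 14378. The part of these cells in the members' levels was not tested. Without these rats the members called in the CA average were 3, as with them, and 0 passed in CA rats at 18m, again as with them; the rev, 5j and TU results without them stand beside those results. The DEN-CA rats of 5j had lymphocyte sums of 1098 to 1831, within the other groups' range, and the highest of them in the members, rat 4087, had the lowest sum.

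Ccnd1, cyclin D1, the cyclin that carries growth signals into the cycle, was lower in rats on CA than in rats without it at most times from 1m to 12m. At 3m the 5 CA rats had signals of 87.5, 89.3, 205, 206 and 228, and the 5 controls 376, 423, 435, 473 and 561. At the same time the DEN-CA rats had 77.5, 144, 150, 177 and 180 and the DEN rats 299, 414, 522, 535 and 554. Every treated rat was below every untreated one in both arms. The log2 fold change was -1.42 ± 0.24 (SE; 2.68-fold lower, adjusted p = 3.5e-06, limma) in CA and -1.53 ± 0.24 (2.89-fold lower, adjusted p = 5.2e-07) in DEN-CA rats.
Ccnd1 fell in CA rats at 1m (-0.72 ± 0.24, adjusted p = 0.030), 3m, 9m (-0.99 ± 0.24, adjusted p = 0.0031) and 12m (-1.12 ± 0.24, adjusted p = 3.9e-04). It did not pass at 5j (-0.30) or 18m (-0.51 ± 0.24, adjusted p = 0.23). In DEN-CA rats it fell at 3m and 9m (-0.87 ± 0.24, adjusted p = 0.012). Averaged over times the fall was -0.85 ± 0.10 for CA (adjusted p = 1.1e-12) and -0.74 ± 0.11 for DEN-CA (adjusted p = 6.7e-09). The difference between the arms was taken over the 5 times they share, where the CA average was -0.91, and at 0.17 ± 0.15 it did not pass (adjusted p = 0.76). No member passed that test of the difference (0.0115% of all genes; limma, with 3 members at an unadjusted p under 0.05), and none passed for the CA effect at 18m against that at 5j (0.664%, with 2), where Ccnd1 differed by -0.21 (adjusted p = 0.92). Both other probe sets of Ccnd1 were lower too, by -0.64 and -0.97 averaged in CA and -0.73 and -0.81 in DEN-CA rats, all past the threshold.
Group means of controls ran from 279 (18m) to 461 (12m) and of DEN rats from 328 to 465, against 163 to 233 in CA rats and 146 to 364 in DEN-CA rats. The 364 was at 5j, where DEN-CA rat 4087 had 731 and the others 180 to 361. The call at 1m was lost when any 1 of 7 of the 10 rats was left out (adjusted p 0.051 to 0.066), and that of DEN-CA at 9m without DEN rat 4068 or 4072 or DEN-CA rat 4115 (0.051 to 0.055). With only the arrays that carry the B suffix the CA change at 3m was -0.90 (adjusted p = 0.37), from 1 CA and 2 control rats.

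**Figure D2:**
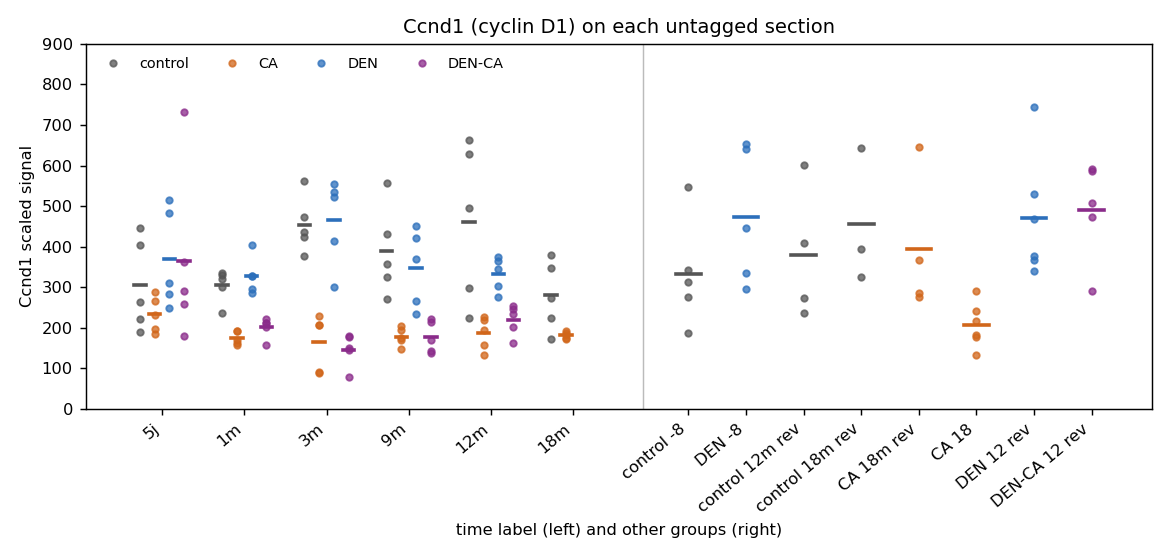
Scaled Ccnd1 signal on each untagged section by time label and arm (left) and in the other groups (right); points are rats and bars group means. From 1m the CA and DEN-CA rats lie below most control and DEN rats, and the rev groups lie at 276 and above in CA and 291 and above in DEN-CA rats.

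Over all tested members, Ccnd1 included, CA lowered few, and none rose in the CA arm on the probe set that stood for it. Of 28 tested, 1 fell at 5j, where 11.2% of all tested genes were called in either direction and 7.11% were lower. At 1m 4 fell (14.7% in either direction, 9.22% lower), at 3m 2 (14.3%, 7.32%), at 9m 1 (7.36%, 2.82%) and at 12m 2 (12.3%, 4.98%). At 18m 0 passed (7.26% of all genes; limma, with 3 members at an unadjusted p under 0.05). In the average over the 6 times 3 of 28 fell, beside 41.4% of all genes called and 22.6% lower. The median change of the tested members was 0.00 in that average and -0.01 over all genes. After DEN 1 member was higher at 5j (11.5% of all genes in either direction, 7.43% higher), and 1 was lower at 1m (17.9%, 5.61% lower), 2 at 3m (15.4%, 4.23%), 1 at 9m (7.35%, 4.95%) and 1 at 12m (7.43%, 3.86%). The average over these times had 1 higher and 4 lower, beside 37.4% of all genes called, 21.1% higher and 16.3% lower. The other probe set of Tk1 was higher in both averages, by 0.17 ± 0.07 in CA (adjusted p = 0.037) and 0.23 ± 0.07 in DEN-CA rats (adjusted p = 0.011). By count the members were thus near or below the background at most single times. In both averages they were called less often than all genes.
Lmnb1, lamin B1 of the nuclear envelope, fell beside Ccnd1 in both arms. At 3m its signals were 83.5, 98.8, 102, 106 and 116 in DEN-CA rats and 157, 158, 177, 187 and 190 in DEN rats. The groups did not overlap, and the change was -0.66 ± 0.14 (adjusted p = 1.6e-04). It also fell in DEN-CA rats at 1m (-0.44) and 12m (-0.58), and in CA rats at 1m (-0.38), 3m (-0.46) and 12m (-0.52), with averages of -0.43 ± 0.06 in DEN-CA (adjusted p = 1.8e-09) and -0.29 ± 0.06 in CA rats (adjusted p = 6.3e-06). Its second measured probe set was lower by -0.20 averaged in CA (adjusted p = 0.024) and by -0.18 in DEN-CA rats (adjusted p = 0.079). The CA call at 1m ended without any 1 of 6 rats (adjusted p up to 0.23), that at 3m without control 4020 (-0.38, adjusted p = 0.061), and the DEN-CA call at 1m without DEN rat 4060 or DEN-CA rat 4090 (adjusted p = 0.053 and 0.056).
The helicase subunit Mcm4 fell under CA at 1m, where CA rats had 5.94, 27.4, 27.6, 40.7 and 48.4 and controls 47.9, 54.4, 66.6, 72.0 and 73.0. The groups overlapped by 1 rat, and the change was -0.72 ± 0.18 (adjusted p = 0.0020). At 5j it was -0.51 (adjusted p = 0.047), which became -0.23 (adjusted p = 0.48) without CA rat 4117 and ended in 6 of the 10 fits that left out 1 rat. The average in CA rats was -0.38 ± 0.07 (adjusted p = 6.8e-06). In DEN-CA rats it was -0.06, and the difference of 0.33 ± 0.11 between the arms, over the 5 times they share, did not pass (adjusted p = 0.27). Stmn1, a protein that destabilises microtubules, fell at 1m by 0.92 ± 0.29 on the log2 scale (adjusted p = 0.020). Controls 4012 and 4013 had 288 and 508, and the other controls 139 to 179 against 72.4 to 158 in CA rats, and without control 4013 the change was -0.64 (adjusted p = 0.17). It was also lost without control 4012 (adjusted p = 0.061) or CA rat 4125 (0.050). Controls 4012 and 4013 and CA rat 4125 carry the B suffix. With only the arrays without that suffix the Stmn1 change was -0.36 (adjusted p = 0.63, limma). With the suffix as a covariate it stayed past the threshold.
Averaged after DEN, the helicase subunits Mcm3 (-0.26 ± 0.10, adjusted p = 0.026) and Mcm7 (-0.20 ± 0.07, adjusted p = 0.020) fell and Ube2c, the ubiquitin-conjugating enzyme of the anaphase-promoting complex, rose (0.34 ± 0.12, adjusted p = 0.017). Leaving out 1 rat of 1 arm at each time gave 10 fits, of which Mcm3 passed in 5 (adjusted p up to 0.077; -0.22 and 0.067 with the B suffix as a covariate), Mcm7 in 8 (up to 0.097) and Ube2c in 8 (up to 0.063). Of the fixed panel, Cdk1, Top2a, Mki67, Pcna and Mcm2 did not pass in either average. The CA averages were 0.08 for Cdk1, 0.00 for Top2a, -0.01 for the proliferation antigen Mki67, -0.16 for the polymerase clamp Pcna (adjusted p = 0.063) and 0.13 for Mcm2. Beside these changes, 8 of 10 macrophage markers and 9 of 18 cytotoxic lymphocyte markers fell in the CA average and 9 of 10 and 8 of 18 in the DEN-CA average, with 1 lymphocyte marker higher in each. Their part in the members' changes was not tested.

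**Figure D3:**
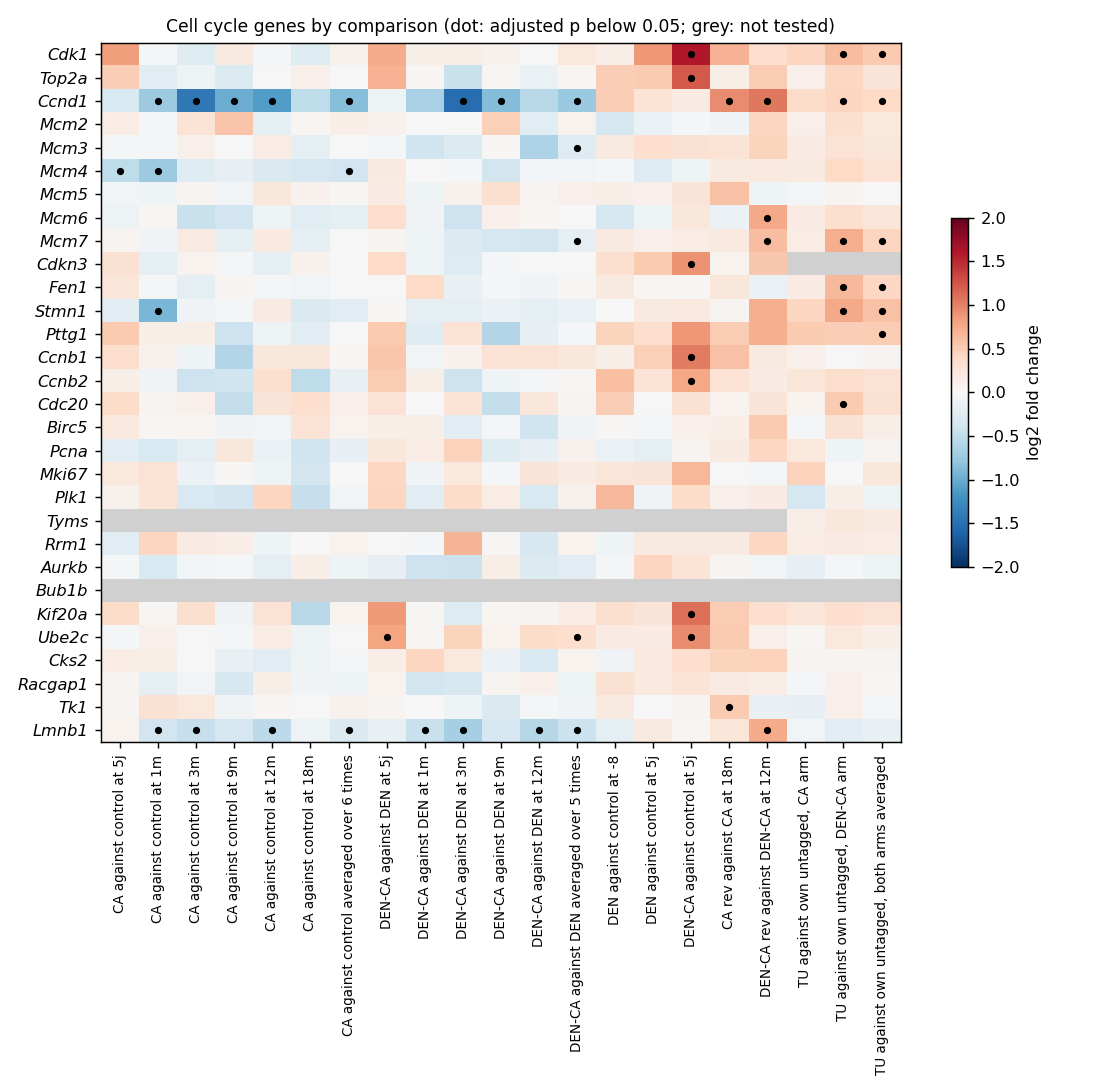
Log2 fold change of each cell cycle gene (rows) in 21 comparisons (columns), from blue (lower) to red (higher), with colours ending at 2 in either direction. Dots mark an adjusted p below 0.05 and grey a gene that was not tested. Ccnd1 and Lmnb1 are blue along the CA and DEN-CA columns from 1m, and Cdk1 and Top2a are reddest in DEN-CA against control at 5j.

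At 5j several mitotic genes were higher in DEN-CA rats than in controls. This comparison was added after the values were seen, and it shares its rats with the other comparisons at 5j, so their changes are given side by side. Cdk1 stood at 13.1, 22.0, 30.6, 39.6 and 58.6 in controls and at 82.7, 83.8, 141, 197 and 293 in DEN-CA rats. CA rats had 46.2, 51.9, 55.0, 124 and 125 and DEN rats 66.0, 66.2, 67.0, 87.6 and 98.3. All DEN-CA rats and all DEN rats were above every control, and the CA rats overlapped with controls.
Of 28 members 7 rose in DEN-CA rats against controls and 0 fell, while 10.9% of all tested genes were called and 4.64% were higher. Cdk1 rose by 1.60 ± 0.31 (3.03-fold on the log2(signal + 25) scale, adjusted p = 4.5e-05) and Top2a by 1.23 ± 0.27 (2.34-fold, adjusted p = 3.8e-04). The second probe sets of Top2a (0.42, adjusted p = 0.37) and Ccnb1 (0.55, adjusted p = 0.071) did not pass. Top2a was at 16.3 to 40.1 in controls and at 36.2, 67.4, 97.4, 100 and 268 in DEN-CA rats, so that 4 of the 5 lay above all controls. Of Cdk1's partners the mitotic cyclins Ccnb1 (1.04 ± 0.29, adjusted p = 0.0087) and Ccnb2 (0.78 ± 0.23, adjusted p = 0.013) and the phosphatase Cdkn3 (0.90, adjusted p = 0.017) rose. Ube2c (0.94 ± 0.26, adjusted p = 0.0078) and the cytokinesis motor Kif20a (1.10 ± 0.32, adjusted p = 0.014) rose as well. Cdkn3 was above the 40th percentile of its array on only 6 of the 176 arrays, and Top2a and Kif20a on 10 each. These genes thus entered the test through a few high arrays.
On the probe sets that stood for them, none of 6 MCM subunits and none of 4 tested DNA synthesis genes passed, with changes of -0.09 to 0.31 and 0.03 to 0.19. The other probe set of Tk1, thymidine kinase, was higher by 0.64 ± 0.17 (adjusted p = 0.0044). Pcna had 357 to 591 in controls and 348, 356, 429, 495 and 887 in DEN-CA rats, and Mcm2 32.2 to 74.5 against 27.6 to 91.6. Mki67 had 11.3 to 33.0 in controls and 31.7, 32.6, 33.3, 47.8 and 103 in DEN-CA rats, and its change of 0.67 did not pass. Ccnd1 was at 188 to 445 in controls and its change of 0.16 did not pass either. Other genes of the cycle outside the members followed in part: of 11 tested further mitosis genes Cdca3 (1.04 ± 0.20, adjusted p = 3.3e-05) and Spc25 of the kinetochore (1.00 ± 0.27, adjusted p = 0.0058) rose and 0 fell, and of 16 further replication genes 1 rose, Dut, which keeps uracil out of DNA (0.43 ± 0.14, adjusted p = 0.026).
Rats of the DEN-CA group differed from each other. Rat 4087 was the highest in all 7 of these genes, rats 4085 and 4089 came next in all but Ccnb1, and rats 4086 and 4088 had Cdkn3 at 5.93 and 18.7, within the control range of 6.32 to 22.4 or below it. Without rat 4087 the changes of Cdk1 (1.37) and Top2a (0.91) stayed past the threshold, while Ccnb1 (0.87, adjusted p = 0.060), Ube2c (0.77, 0.060), Kif20a (0.90, 0.088), Ccnb2 (0.61, 0.10) and Cdkn3 (0.69, 0.13) did not. Without rat 4089 Ccnb2, Kif20a and Cdkn3 ended too (adjusted p = 0.050, 0.091 and 0.10), as did Kif20a without control 4008 (0.057) and Cdkn3 without control 4010 (0.055) or rat 4085 (0.077). Within the arrays with the B suffix 4 members passed, and within those without it 0, where 1 control was left and Cdk1 changed by 1.75 (adjusted p = 0.15) and Top2a by 0.79.
The single steps to this difference mostly did not pass. DEN-CA against DEN rats at 5j gave Ube2c alone, with signals of 90.4, 91.3, 110, 111 and 115 in DEN rats and 87.7, 148, 229, 274 and 328 in DEN-CA rats. All but rat 4088 were above the DEN rats (0.78 ± 0.26, adjusted p = 0.035), and the call ended without rat 4087 (0.61, adjusted p = 0.19) and without 4 other single rats. In that comparison Cdk1 was at 0.74 (adjusted p = 0.12), Top2a at 0.70 (0.079) and Kif20a at 0.85 (0.077). In CA against control rats at 5j Cdk1 was at 0.84 (adjusted p = 0.062) and Top2a at 0.50 (0.24), and in DEN against control rats at 0.86 (0.51) and 0.53 (0.61). With rats 4040, 4043 and 4111 left out of the shared estimate of spread, Cdk1 passed in CA rats (adjusted p = 0.038) and Top2a (0.033) and Kif20a (0.043) in DEN-CA against DEN rats. Whether the CA effect at 5j differed with DEN was tested for all members and 0 passed (0.0229% of all genes called; limma, with 2 members at an unadjusted p under 0.05), and likewise 0 for the DEN-CA effect at 5j against that at 1m (0.24%, with 1 member) and the CA effect at 5j against that at 1m (0.0573%, with 2 members). The DEN-CA rats of 1m, which were other animals, had means of the members of 6.26 to 6.49.

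**Figure D4:**
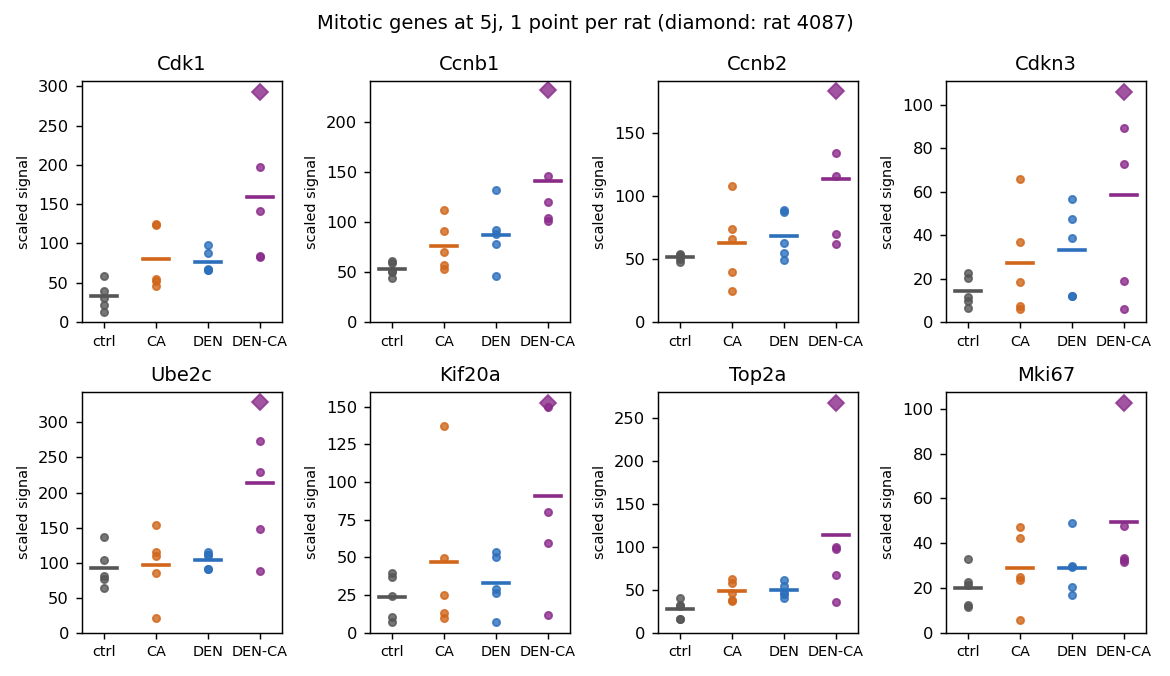
Scaled signals of 8 mitotic genes at 5j in control, CA, DEN and DEN-CA rats, 1 point per rat with bars at the means of 5 rats, each panel with its own axis from 0. DEN-CA rats include the highest value in every panel, and rat 4087 (diamond) is the highest of all.

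DEN alone moved no member past the threshold. Against controls 0 of 28 passed at -8 (0.309% of all genes; limma, with 3 members at an unadjusted p under 0.05), 0 at 5j (0.0344%, with 1) and 0 in the average of 5j to 12m (0.0115%, with 1). In controls of 18m against 5j 0 members passed on the probe sets that stood for them (6.34%, with 2 members at an unadjusted p under 0.05). Another probe set of Cdc20 was lower there (-0.70 ± 0.16, adjusted p = 0.0025), and without rat 4040 and the other 2 high rats the survivin gene Birc5 was lower (-0.68 ± 0.21, adjusted p = 0.045). No member passed in controls of -8 against 5j (0%, with 0). In CA rats labelled 18 against controls of 18m 0 members passed (23.6%, with 3). Without rats 4040, 4043 and 4111 3 did, all higher, namely Mcm5 (0.58), Pttg1 (1.00) and Birc5 (0.59), with adjusted p of 0.025 to 0.028. The share of all genes called in that fit is not given here, so this count cannot be read as particular to the members. In the CA rats labelled 18 Ccnd1 was at 132 to 290 with a median of 200, against 173 to 380 in the controls.

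Lists of genes around the members differed in how often they were called in the CA average, where 41.4% of all genes passed. The CDK inhibitors and arrest genes were called most often and the further mitosis genes least. Of 15 tested G1 cyclins, CDKs, E2F and retinoblastoma genes 3 rose and 4 fell. The retinoblastoma relative Rbl2 (-0.32 ± 0.05, adjusted p = 8.0e-09) fell. The transcription factors Jun (-0.87 ± 0.15) and Junb (-0.56 ± 0.11), which this list also holds, fell too. Ccnh, the cyclin of the CDK-activating kinase, rose (0.37 ± 0.08). Of 10 CDK inhibitors and arrest genes 6 fell and 1 rose, with Ccng1 at -0.41 ± 0.06 (adjusted p = 3.7e-09), the CDK inhibitor Cdkn1a at -0.55 ± 0.09 (adjusted p = 2.4e-07), Tob1 at -0.53 ± 0.09 and Cdkn1c at -0.45 ± 0.09. Of 16 further replication genes 5 rose, led by the clamp loader subunit Rfc3 (0.34 ± 0.09), the primase Prim1 (0.24 ± 0.07) and the polymerase delta subunit Pold2 (0.28 ± 0.08), and Top1 fell by 0.17 on the log2 scale. Of 11 further mitosis genes the histone variants H2ax (-0.24) and H2az1 (-0.18) fell. After DEN, where 37.4% of all genes passed, 3 of the 15 rose and 5 fell, 1 of the 10 rose and 4 fell, and 5 of the 16 rose.

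In the rev groups Ccnd1 was higher than in the same arm without the tag. At 18m CA rev rats had 276, 284, 367 and 646 and CA rats 172, 175, 182, 187 and 192, with no overlap. The change was 0.94 ± 0.26 (1.92-fold, adjusted p = 0.0061), and without rev rat 4146 it was 0.68 (adjusted p = 0.078). At 12m DEN-CA rev rats had 291, 473, 508, 587 and 591 and DEN-CA rats 163, 202, 233, 246 and 254. These groups did not overlap either, and the change of 1.05 ± 0.24 (2.07-fold, adjusted p = 0.0012) stayed past the threshold in all 10 fits that left out 1 rat and without rats 4040, 4043 and 4111. Against rev rats that had no CA, Ccnd1 did not pass, at -0.22 ± 0.29 for CA (adjusted p = 0.89) and 0.07 ± 0.23 for DEN-CA rats (adjusted p = 1.0). The other 2 probe sets of Ccnd1 rose in DEN-CA rev rats (1.13 and 1.64) and did not pass in CA rev rats (0.58 and 0.77).
In CA rev against CA rats 2 of 28 members rose (14.9% of all genes called, 6.92% higher), the other being Tk1, thymidine kinase. It stood at 172, 183, 186 and 249 against 106, 114, 120, 150 and 154, without overlap (0.53 ± 0.19, adjusted p = 0.038), and passed in 3 of the 9 fits that left out 1 rat. Those without CA rat 4143, 4145 or 4150 or rev rat 4148, 4149 or 4151 gave 0.43 to 0.56 with adjusted p of 0.056 to 0.18. In DEN-CA rev against DEN-CA rats 4 of 28 rose (13.3%, 8% higher). Lmnb1 was at 185, 194, 246, 267 and 334 against 122, 122, 132, 132 and 162 (0.74 ± 0.14, adjusted p = 2.8e-05), again without overlap. Mcm7 (0.61 ± 0.16, adjusted p = 0.0050) and Mcm6 (0.76 ± 0.27, adjusted p = 0.041) rose, and without rat 4111 they were at 0.44 each (adjusted p = 0.066 and 0.32). Mcm6 also ended without 4 other single rats (0.055 to 0.097), and it was above the 40th percentile of its array on only 5 of the 176 arrays. Without rats 4040, 4043 and 4111 the count was 2 (Ccnd1 0.98, Lmnb1 0.63), and in CA rev against CA rats it was 3, Mcm5 being added (0.59, adjusted p = 0.042). In the same comparisons 6 of 10 macrophage markers, with 2 of 18 cytotoxic lymphocyte markers, rose in CA rev rats and 7 of 10, with 9 of 18 cytotoxic lymphocyte markers, in DEN-CA rev rats. Without these 3 rats the markers that rose were 4 of 10 and 3 of 18 in DEN-CA rev rats, and 6 of 10 and 7 of 18 in CA rev rats. The part of the markers in the members' rise was not tested. The shares of all genes called without these rats are not given here, so the counts without them have no background.
Against control rev rats the CA rev rats had lower values in 26 of the 28 members, of which 2 passed (0.847% of all genes, 0.698% lower). How many of all genes had lower values, passed or not, was not counted. The 2 that passed were Mcm6, at 3.23 to 18.7 against 27.4, 33.8 and 162, and Cdkn3, at 5.32 to 13.3 against 17.0, 62.3 and 105. The groups did not overlap, and the changes were -1.26 ± 0.32 (adjusted p = 0.029) and -1.26 ± 0.33 (adjusted p = 0.036). Mcm6 was above the 40th percentile of its array on only 5 of the 176 arrays and Cdkn3 on 6. Both thus entered the test through a few high arrays. The 162 and 105 belonged to rat 4043, without which Mcm6 was at -0.67 (adjusted p = 0.99) and Cdkn3 at -0.89 (0.87), and both also ended without CA rev rat 4148, 4149 or 4151 (0.055 to 0.13). Cdkn3 ended without control rev rat 4044 too (0.076). Without rats 4040, 4043 and 4111 24 were lower and 0 passed, and the median change went from -0.53 to -0.24. With them 6 of 18 cytotoxic lymphocyte markers were lower too, and without them 0. In DEN-CA rev against DEN rev rats 0 members passed (0.126%; limma, with 3 at an unadjusted p under 0.05). The members' median there was 0.19 with rat 4111 and the other 2 rats and -0.06 without them.

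In sections tagged TU the members were more often higher than in the untagged section of the same rat. The labels give 9 CA and 7 DEN-CA rats with both, and TU sections of 1 rat were averaged. The CA rats were of 12m (4137, 4141), 18m (4142, 4143, 4144, 4150), label 18 (4152, 4156) and 18m rev (4151). The DEN-CA rats were of 9m (4103, 4104, 4105), 12m (4106, 4107, 4109) and 12m rev (4111). Times and rev rats were pooled within an arm, so a difference between the arms cannot be told apart from one of time. In 14 of the 16 rats more than 15 of the 30 members were higher. The exceptions were CA rat 4137, with 7, and DEN-CA rat 4111, with 12. For each rat, the share of all genes that were higher was not counted, so these counts cannot be read as particular to the members. The TU sections of rat 4111 had member means of 7.37 and 7.71, above every other TU section, beside 7.68 in its untagged section. In rat 4137 the untagged section had a summed endothelial signal of 860.0 against 1926 in TU and 1925 in PERI, a macrophage sum of 5120 against 6129 and 5476, and a cholangiocyte sum of 855 against 556 and 629. Their part in its lower count was not tested. The mean of the differences ran from -0.40 (rat 4137) to 0.54 (DEN-CA rat 4106) on the log2 scale.
In DEN-CA rats 6 of 28 tested members rose and 0 fell, beside 30.5% of all 8325 genes called and 12.7% higher. Fen1 differed by 0.16, 0.55, 0.67, 0.70, 0.74, 0.77 and 0.97 and Mcm7 by 0.17, 0.63, 0.69, 0.76, 0.87, 0.96 and 1.01, so that both were higher in 7 of 7 rats. Their means were 0.65 ± 0.13 (adjusted p = 9.9e-04) and 0.73 ± 0.15 (adjusted p = 0.0019). Stmn1 (0.75 ± 0.20, adjusted p = 0.0087, higher in 6 of 7), Cdk1 (0.62 ± 0.22, adjusted p = 0.038, 6 of 7), Cdc20, the activator of the anaphase-promoting complex (0.53 ± 0.19, adjusted p = 0.037, 7 of 7), and Ccnd1 (0.42 ± 0.16, adjusted p = 0.047, 7 of 7) rose as well. Of these, Fen1, Mcm7 and Stmn1 stayed past the threshold in all 7 fits that left out 1 rat, Cdc20 in 3, Cdk1 in 2 and Ccnd1 in 1. Without DEN-CA rev rat 4111, 22 members were tested, the rest of the 28 having entered the test only with that rat's sections. Of the 22, 5 passed, Ccnd1 being lost (0.41, adjusted p = 0.082). The share of all genes called in that fit is not given here. Cdc20, Cdk1 and Ccnd1 each ended without rat 4104, 4105, 4106 or 4109, Cdk1 also without rat 4103, and Ccnd1 also without rat 4107 or 4111 (adjusted p of 0.054 to 0.15). With TU and untagged sections taken as independent (no pairing by rat) 3 members passed in place of 6, and with only sections without the B suffix, which leaves out rats 4103, 4104 and 4105, 0 (Fen1 0.54, adjusted p = 0.059; Mcm7 0.62, adjusted p = 0.076).
In CA rats 0 of 28 members passed (3.88% of all genes by limma, with 5 members at an unadjusted p under 0.05) and 21 were above 0. The share of all genes above 0 was not counted. The difference between the arms was tested, and 0 members passed (0%; with 2 at an unadjusted p under 0.05). Averaged over both arms 6 rose (34.4%, 14% higher). They were Fen1 (0.41 ± 0.08, adjusted p = 9.1e-04, higher in 14 of 16 rats), Stmn1 (0.59 ± 0.13, adjusted p = 0.0022, 14 of 16), Mcm7 (0.43 ± 0.10, adjusted p = 0.0029, 14 of 16), Ccnd1 (0.40 ± 0.10, adjusted p = 0.0060, 13 of 16), Cdk1 (0.53 ± 0.15, adjusted p = 0.0088, 13 of 16) and Pttg1, securin, which holds sister chromatids together until anaphase (0.51 ± 0.16, adjusted p = 0.022, 12 of 16). The first 5 stayed past the threshold with any 1 rat left out, and Pttg1 in 14 of 16 such fits. The other 2 Ccnd1 probe sets were at 0.03 and 0.21 and did not pass. Other probe sets of 3 members outside these 6 did pass in the average, those of Ccnb1 (0.40 ± 0.11, adjusted p = 0.0082), Cdc20 (0.42 ± 0.12, adjusted p = 0.011) and Tk1 (0.22 ± 0.08, adjusted p = 0.035). Top2a, Mki67, Pcna and Mcm2 did not pass in either arm or in the average. Without rat 4111 7 of 22 tested members rose in the average, with Cdc20 added (0.34 ± 0.13, adjusted p = 0.049). The share of all genes called in that fit is not given here either.
Neighbouring genes of the cycle in TU sections, averaged over both arms, went both ways, with 34.4% of all genes called. Of 14 tested G1 cyclins, CDKs, E2F and retinoblastoma genes 6 rose and 2 fell, among them Cdk4, the partner of cyclin D1 (0.59 ± 0.10, adjusted p = 2.7e-04), the E2F partner Tfdp1 (0.75 ± 0.16), Junb (0.58 ± 0.12) and Ccnh (0.44 ± 0.10). Of 10 inhibitors and arrest genes 4 rose and 3 fell, led by Cdkn2a, which encodes the CDK4 inhibitor p16 and ARF, at 1.73 ± 0.24 (adjusted p = 7.9e-05), Ccng1 (0.57 ± 0.10) and Tob1 (0.65 ± 0.15), with Btg1 at -0.32 ± 0.07. Of 17 further replication genes 5 rose, led by Rnaseh2a (0.50 ± 0.11, adjusted p = 0.0024) and Pold2 (0.40 ± 0.12), and of 9 further mitosis genes 1 rose, Cdc25a (0.23 ± 0.09, adjusted p = 0.049). In the same sections 7 of 10 macrophage markers fell, 3 of 15 cytotoxic lymphocyte markers fell and 2 of 8 hepatocyte markers fell; the part of this in the members' rise was not tested.

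**Figure D5:**
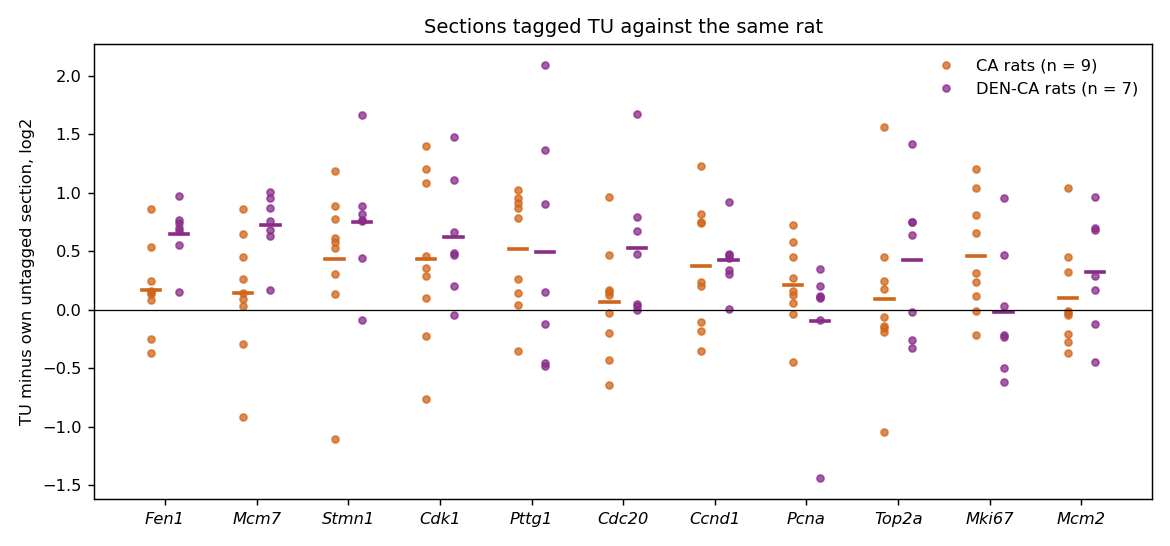
Difference between TU and untagged sections of the same rat on the log2 scale for 11 cell cycle genes, 1 point per rat (9 CA, 7 DEN-CA), with bars at the arm means. Fen1 and Mcm7 are above 0 in all 7 DEN-CA rats, and Mki67 scatters around 0 in that arm. Top2a has a mean of 0.42 there (SE 0.24) and did not pass (adjusted p = 0.19, limma).

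The 5 PERI sections against their own untagged sections gave 0 of 14 tested members past the threshold (0%; limma, with 1 member at an unadjusted p under 0.05).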

How the data were processed

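Affymetrix arrays of total RNA from 176 liver sections of F344 rats were analysed. The deposited intensity values, on a linear scale for 15922 probe sets, came from MAS5 per the submitters' processing notes; its version and scaling target are not given in the sources used here. Array medians ran from 25.35 to 187.2, so each array was scaled to the median of medians, 99.35, and log2(signal + 25) was taken, which makes the folds of dim genes smaller. Probe sets above the 40th percentile of their array on at least 3 arrays were tested with limma 3.58.1 in R 4.3.3 (lmFit, eBayes with trend, two-sided, Benjamini-Hochberg over all probe sets, threshold 0.05). Untagged sections entered 1 fit of 30 groups (118 residual degrees of freedom). TU and PERI sections were compared with the untagged section of the same animal; pairs are given by the rat number, and the within-rat deviations correlated from -0.56 to 0.47 (median 0.23). Code was tested on simulated data. Named genes were a panel (Cdk1, Top2a, Ccnd1, Mki67, Pcna, Mcm2), members past 0.05, and up to 4 genes of each other list. The members and lists were chosen with earlier results of these data known. P-values of untagged sections rest on the spread between rats of a group, and those of TU and PERI sections on the spread of within-rat differences. The number of rats limits the precision.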

Additional observations from a re-analysis of the deposited data

Results flagged for a closer look

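In 29 untagged groups of 4 to 10 rats, the highest and lowest rat were compared with the rest of their group by Dixon's criterion for the members' mean and 6 panel genes. Of 203 such checks 28 passed the 95% limit, where chance gives about 1 in 20.
DEN-CA rev rat 4111 stood above its group in the members' mean (7.68, others 6.34 to 6.61), Cdk1 (176, others up to 48.6), Top2a (237, up to 44.1), Mki67 (146, up to 18.6), Pcna (893, up to 557) and Mcm2 (224, up to 80.4). DEN-CA rat 4087 of 5j stood above its group in Top2a (268, others up to 100), Mki67 (103, up to 47.8) and Pcna (887, up to 495). DEN rev rat 4083 stood above its group in the members' mean (6.87, others up to 6.48), Cdk1 (110.3, up to 49.2) and Top2a (83.6, up to 38.9).
Other rats above their group were CA rat 4137 of 12m in Mcm2 (90.9), CA rat 4128 of 3m in Pcna (643), control 4028 of 12m in Mcm2 (78.6) and control 4023 of 9m in the members' mean (6.54). Mki67 was highest in DEN-CA rat 4105 of 9m (33.1), DEN rat 4063 of 3m (43.8) and DEN rat 4070 of 9m (39.2).
Rats below their group were CA rat 4126 of 1m in Top2a (10.2), CA rat 4131 of 3m in Cdk1 (5.74), CA rat 4130 of 3m in Mcm2 (9.01), control 4016 of 3m in Mki67 (4.96) and DEN rat 4064 of 3m in Top2a (5.40). DEN-CA rat 4109 of 12m was low in the members' mean (6.22), DEN-CA rat 4090 of 1m in Ccnd1 (158, others 202 to 220), DEN-CA rat 4115 of 9m in Cdk1 (12.0) and DEN rat 4049 of -8 in Pcna (315, others 438 to 485).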

How the results depend on the processing

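Counts are members past the adjusted threshold, with the reported count first; the cause of the shifts was not tested except where fewer rats or genes entered. Without scaling, the median change of all genes itself moved, to -0.73 for CA at 3m for instance. CA counts then went from 1 to 0 (5j), 4 to 0 (1m), 2 to 10 (3m), 1 to 0 (9m), 2 to 1 (12m) and 3 to 5 (average), DEN-CA against DEN from 1 to 0 (5j, 1m, 9m, 12m), 2 to 1 (3m) and 5 to 2 (average), CA rev from 2 to 0 against CA and against control rev, DEN-CA rev from 4 to 15, DEN-CA against control at 5j from 7 to 2, and TU from 0 to 2 (CA) and 6 to 0 (DEN-CA). Requiring a 2-fold change left 0 for CA at 5j, 1m, 9m and in the average, 1 at 3m and 12m, 0 for DEN-CA against DEN at 5j, 1m, 9m, 12m and in the average and 1 at 3m, 0 for CA rev against CA, 1 for DEN-CA rev, 4 for DEN-CA against control at 5j and 0 for TU in DEN-CA rats and the average. Quantile normalization gave 2 in place of 1 for CA at 5j and DEN-CA at 5j, 1m and 12m. A filter at the 70th percentile, which tests fewer genes, gave 0 for CA at 5j, 2 for DEN-CA at 1m, 0 for CA rev against control rev, 1 for DEN-CA against control at 5j and 3 for TU in DEN-CA rats and the average, and no filter gave 3 for TU in DEN-CA rats. With the B suffix as a covariate CA at 5j gave 0, DEN-CA 2 (1m), 3 (9m) and 2 (12m), and control 18m against 5j 3. With only the groups compared in the fit, CA gave 0 (5j), 2 (1m) and 1 (3m), DEN-CA 0 (5j) and 2 (12m), and CA rev 4 against CA and 0 against control rev.
Without rats 4040, 4043 and 4111, chosen after seeing the data, CA at 5j gave 2, DEN-CA 3 (5j) and 2 (12m), CA rev against control rev 0, DEN-CA rev 2, control 18m against 5j 1 and CA labelled 18 gave 3. Arrays with the B suffix alone gave 0 for CA at 5j, 3m and 9m, 1 at 1m, 0 for DEN-CA at 9m and 4 for DEN-CA against control at 5j. Those without it, also fewer rats, gave 0 for CA at 5j, 1 at 1m and 3m, 0 for DEN-CA at 5j, 1m, 3m and 9m, 2 in its average, and 0 for CA rev against control rev and DEN-CA against control at 5j. Array weights gave 2 for CA at 9m, 0, 3 and 2 for DEN-CA at 5j, 9m and 12m, 0 for CA rev against control rev, 1 for control 18m against 5j, 5 for CA labelled 18, and 4 and 10 for TU in CA rats and the average. An offset of 6 gave 0 and 2 for DEN-CA at 5j and 12m, 0 for CA rev against control rev and 4 for DEN-CA against control at 5j, and an offset of 99 gave 5 for DEN-CA at 5j and 4 for CA rev against control rev. The mean of a gene's probe sets gave 2 and 0 for DEN-CA at 5j and 12m.
For TU in DEN-CA rats, the fit with no replicate block, which ignores the pairing by rat, gave 3 in place of 6, and sections without the B suffix gave 0; the block changed no other call count by over 1.5 times.
Leaving out 1 rat (in the averages also 1 rat of an arm at each of several times) gave, for CA, 0 to 2 (5j), 1 to 4 (1m), 1 to 2 (3m), 1 (9m), 2 (12m) and 3 to 4 (average), for DEN-CA against DEN 0 to 3 (5j), 0 to 1 (1m), 2 to 4 (3m), 0 to 1 (9m), 1 to 2 (12m) and 3 to 5 (average), for CA rev 1 to 3 against CA and 0 to 5 against control rev, 2 to 6 for DEN-CA rev, 2 to 8 for DEN-CA against control at 5j, 0 to 1 for control 18m against 5j, 0 to 3 for CA labelled 18, and 0 to 4, 3 to 5 and 5 to 9 for TU in CA rats, DEN-CA rats and the average. No called member reversed its direction under the alternatives run. The members' median in DEN-CA rev against DEN rev rats, where none passed, did change sign without rats 4040, 4043 and 4111, as given above. Low signal limits Cdk1, Top2a, Mki67, Cdkn3 and Mcm6, whose folds shrink with the offset.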
